A study of Mus musculus with 622 samples.

Results

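The proteasome is the protease that removes ubiquitin-tagged proteins, and its genes carry systematic symbols. Mouse gene symbols made of Psma, Psmb, Psmc, Psmd, Psme, Psmf or Psmg and a number were taken from the count tables, which gave 50 of 23845 genes. They encode 7 alpha and 7 beta subunits of the core particle, 5 inducible or tissue-restricted core subunits, 6 ATPases and 11 other subunits of the regulatory particle, 7 assembly chaperones, and 6 activators or inhibitors. The last one, Psmc3ip, matches by name only and encodes a partner of the meiotic recombinases. Psme2 and Psme2b are near-identical copies, so reads may have been split between them.

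The core particle is a stack of rings in which beta subunits carry the proteolytic sites and alpha subunits form the gate. The regulatory particle caps it: its ATPases unfold substrates, and its other subunits bind and remove ubiquitin. In mouse embryos the maternal proteins and transcripts stored in the oocyte are cleared while the embryo's own genome is switched on, and proteasome activity is needed for that transition.

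The values come from 525 single FVB/NJ mouse embryos sequenced as polyadenylated RNA, with expected counts per gene. Parthenotes are eggs activated without sperm, here with strontium chloride and EGTA in the presence of cytochalasin B, so they hold maternal chromosomes only. Other eggs were fertilized in vitro. Every embryo, controls included, was injected as a zygote, and controls received GFP in place of a synthetic microRNA. Late 2-cell embryos were collected 28 hours after activation or fertilization, 4-cell embryos after 46 hours and compacted morulae after 70 hours. In the miR-200c experiment parthenote controls numbered 28, 24 and 20 at these stages. Of miR-200c-3p the low dose went into 26, 23 and 24 embryos of these stages and the mid dose into 23, 22 and 19. The high dose went into 24 embryos of the 4-cell stage and 19 morulae. Fertilized embryos numbered 21 controls and 21 injected with miR-200c-3p at the 4-cell stage, and 23 and 23 at the morula stage. In the miR-465c experiment, again in parthenotes, 22 controls and 21 embryos injected with miR-465c-3p were collected at the 2-cell stage. Of its 4-cell embryos 23 were controls, 24 had the low and 16 the high dose, and of its morulae 22, 29 and 28. The low dose is labelled as about 200 molecules, and no amount is given for the others. About 5 females were pooled for each of 3 experimental replicates (2 in 1 experiment), and the day of an embryo is not labelled, so p-values measure the spread between embryos, of which some share a pool. Another 93 parthenotes at the 2-cell stage carried an RNA editing assay described with its values.

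Embryos held 404357 to 6774824 expected counts (median 3118638). Stage markers followed the labels: summed maternal oocyte transcripts averaged 6553, 580 and 26.9 CPM (counts scaled to the library total) in the miR-200c control parthenotes of the 3 stages, 2-cell activation transcripts 2409, 186 and 26.6 CPM, and morula lineage transcripts 676, 675 and 4728 CPM. Markers of the cumulus cells that surround the egg summed to between 0.112 and 6.68 CPM on average over the control groups. Paternally expressed genes averaged 53.5 CPM in fertilized control morulae against 9.78 and 8.49 CPM in parthenotes (miR-200c and miR-465c). At the 4-cell stage the controls averaged 40.6 CPM against 17.8 and 14.3 CPM. The 2-cell control parthenotes, with no fertilized group beside them, averaged 187 and 133 CPM, so the list separated embryo types only within a stage. By a rule on the correlation with the group's median profile, 24 of the 525 embryos stood apart, 8 of them among 183 controls, and each main count was repeated without them. Each stage was a collection of its own, so stage and library batch cannot be told apart. The same holds for embryo type and for the miR-200c and miR-465c series against their experiments.

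The injected microRNAs and their matches in proteasome transcripts are shown because the dose comparisons below turn on them. In the mature sequences from RefSeq (GRCm38.p6) capitals mark the seed, bases 2 to 8. The first is encoded at chr6:124718324-124718346 on the minus strand, the second in Mir465c-1 at chrX:66825965-66825986 on the minus strand.
mmu-miR-200c-3p: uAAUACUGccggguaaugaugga
mmu-miR-465c-3p: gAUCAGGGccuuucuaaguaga

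The complement of the miR-200c-3p seed, CAGTATT, occurred in the 3′ UTR of 1 of the 50 genes (2%), against 12.3% of 18829 genes with an annotated 3′ UTR. CCCTGAT, the complement of the miR-465c-3p seed, also occurred in 1 of 50 (2%), against 7.01% of genes. Proteasome 3′ UTRs were short, with a median of 205.5 bases against 818 for all genes. The part of length in these shares was not tested. Both matches fell in Psmf1, which encodes PI31, a protein that binds the core particle and can inhibit it. Capitals mark the match. The miR-200c-3p match begins at base 73 of the 2572-base 3′ UTR, at chr2:151718547-151718569 on the minus strand, and the miR-465c-3p match at base 1518, at chr2:151717102-151717124 on the minus strand.
Psmf1, miR-200c-3p match: atcagcgtCAGTATTcttgtggg
Psmf1, miR-465c-3p match: aacttggaCCCTGATttaaagga

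Proteasome transcripts took up a growing share of the embryo's messages from the 2-cell stage to the morula. In control parthenotes of the miR-200c experiment the 50 genes held 0.424% ± 0.0957 of all counts at the 2-cell stage (SD, n = 28), 1.04% ± 0.133 at the 4-cell stage (n = 24) and 2.02% ± 0.255 in morulae (n = 20). Shares ran from 0.285% to 0.616%, from 0.770% to 1.42% and from 1.501% to 2.64%, so the groups did not overlap. Control parthenotes of the miR-465c experiment held 0.498% ± 0.143 (n = 22), 1.18% ± 0.262 (n = 23) and 2.23% ± 0.283 (n = 22), and fertilized controls held 1.04% ± 0.0842 (n = 21) at the 4-cell stage and 1.91% ± 0.163 (n = 23) in morulae. One 4-cell control of the miR-465c experiment, replicate 23, held 0.168%, below all 2-cell controls. It stood apart from its group and had a total of 584100 counts. Without embryos that stood apart the miR-465c shares at the last 2 stages were 1.22% ± 0.145 (n = 21) and 2.17% ± 0.162 (n = 19). These are shares of a library: the RNA content of an embryo was not measured, and in whole embryos fewer cells of a type and less RNA per cell cannot be told apart.

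**Figure D1:**
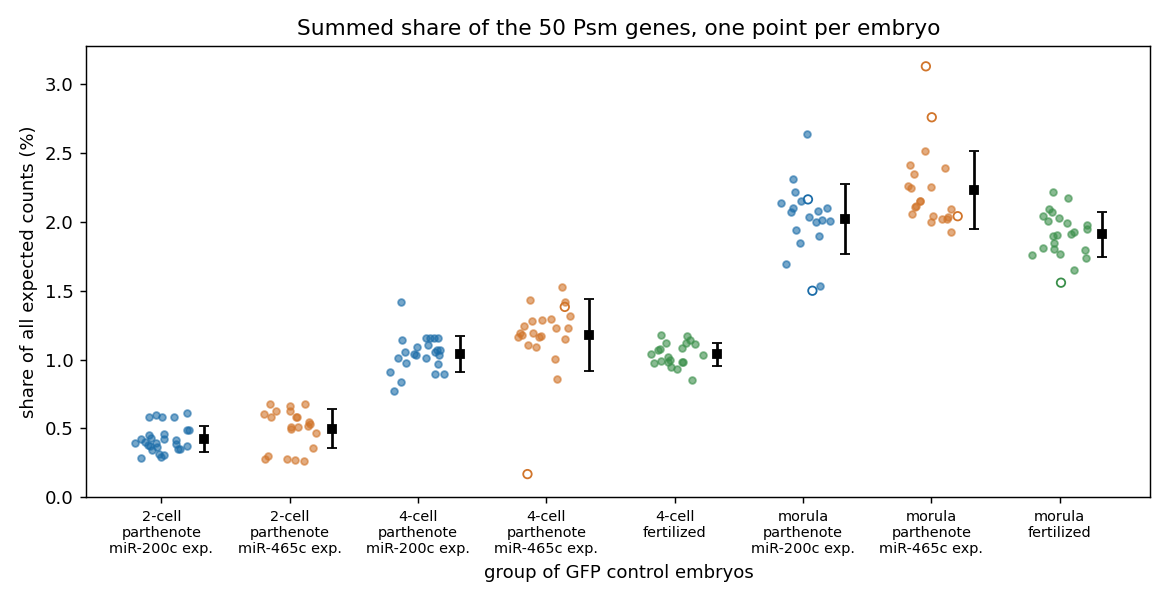
Share of all expected counts (percent) held by the 50 proteasome genes in each control embryo, by stage, for control parthenotes of both experiments and fertilized controls. Points are embryos, open circles embryos that stood apart, and squares with bars the mean ± SD. The miR-200c parthenotes rise from 0.424% through 1.04% to 2.02% with no overlap between stages.

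The steps were tested in all control embryos together, over 13027 genes. Of the 50 members 48 passed the filter on low counts, which Psma8 and Psmb8 did not. From the 2-cell to the 4-cell stage 39 members rose and 6 fell in the miR-200c experiment, where 34.3% of all genes tested rose and 35.5% fell (edgeR quasi-likelihood test, Benjamini-Hochberg adjusted p under 0.05). In the miR-465c experiment 40 rose and 4 fell, against 31.1% and 35% of all genes. The median log2 fold change of the 48 members was 1.62 and 1.73, and that of all genes -0.06 and -0.14. From the 4-cell stage to the morula 40 rose and 2 fell in miR-200c parthenotes (25.8% and 29% of all genes), 35 rose and 2 fell in miR-465c parthenotes (26.9% and 28.8%), and 37 rose and 2 fell in fertilized embryos (28.3% and 25.3%). Medians of the members were 1.09, 0.94 and 0.99, against -0.04, 0.00 and 0.11 for all genes. The parthenote steps share the 4-cell controls, so their values are not independent of each other.

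**Figure D2:**
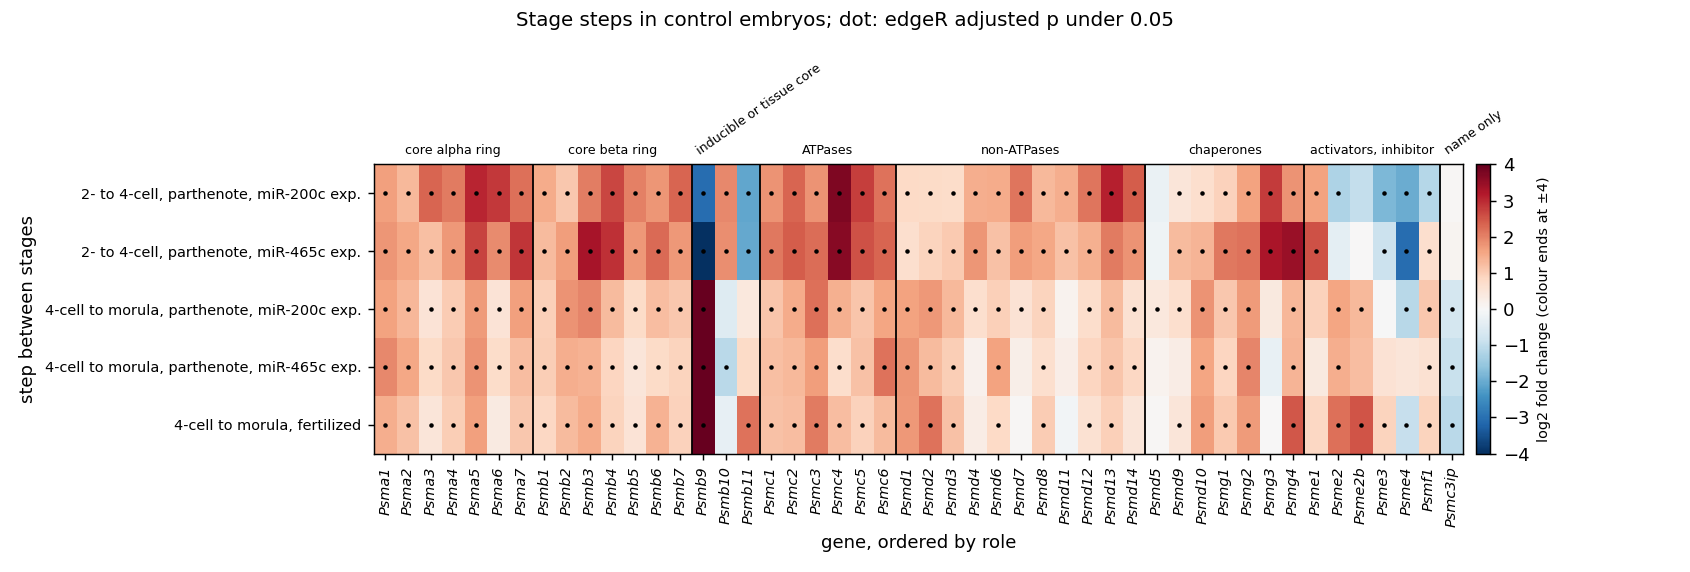
Heat map of the log2 fold change of 48 proteasome genes (columns, grouped by role) in 5 stage steps of control embryos (rows), with the colour scale ending at -4 and 4 and a dot where the edgeR adjusted p was under 0.05. Standard core subunits and ATPases are positive in all 5 steps, while Psme3 and Psme4 are negative and dotted from the 2-cell to the 4-cell stage in both experiments.

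All 7 alpha and all 7 beta subunits of the standard core rose from the 2-cell to the 4-cell stage in both experiments, with median log2 fold changes of 2.20 and 2.03 (miR-200c) and of 1.77 and 1.75 (miR-465c). At the next step every one of these 14 rose in both series of parthenotes, and in fertilized embryos all rose but Psma6 (log2 fold change 0.35). Psma3 and Psma6 in miR-200c parthenotes and Psma3 in fertilized embryos did not pass with library totals alone (adjusted p 0.0846, 0.118 and 0.0629), nor did Psmb5 in miR-465c parthenotes without embryos that stood apart (0.39, adjusted p 0.108). As a share of counts in miR-200c controls, the alpha subunits went from 0.0603% ± 0.0205 to 0.243% ± 0.0346 and 0.493% ± 0.103, and the beta subunits from 0.0563% ± 0.0240 to 0.181% ± 0.0382 and 0.401% ± 0.0689 (SD, n = 28, 24 and 20).

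Psma5, an alpha-ring subunit, had a lowest, median and highest level of 7.65, 37 and 79.1 CPM in the 2-cell controls of the miR-200c experiment, 148, 262 and 431 CPM in the 4-cell controls and 352, 747 and 1240 CPM in the morulae. The 2-cell and 4-cell embryos did not overlap, and the 4-cell and morula ranges met only at their ends. Its log2 fold change was 3.04 (SE 0.17, adjusted p 1.3e-38) and then 1.70 (SE 0.18). Psmb3, a beta subunit with no proteolytic site, measured 3.07, 45.6 and 127 CPM in the 2-cell controls of the miR-465c experiment and 44.5, 390 and 595 CPM in the 4-cell controls. Its rise there, 3.29 (SE 0.20, adjusted p 1.8e-34), was larger than the 2.03 (SE 0.18) of the miR-200c experiment by an interaction test (difference 1.25, SE 0.26, adjusted p 0.000116). Between these experiments 10 members differed in the first step (14.6% of all genes did) and 1 in the later one (3.74%). Psmb2 took the largest part of its rise at the later step of the miR-200c parthenotes, with 1.81 (SE 0.17, adjusted p 1.2e-19) after 1.08 (SE 0.15).

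The catalytic beta subunits Psmb5 (chymotrypsin-like site), Psmb6 (caspase-like site) and Psmb7 (trypsin-like site) did not move by the same amount. Psmb5 measured 1.34, 50.9 and 336 CPM in 2-cell, 159, 303 and 634 CPM in 4-cell and 253, 484 and 617 CPM in morula controls of the miR-200c experiment (lowest, median, highest). Its 2-cell embryos spread widely and reached into the 4-cell range, and the 4-cell and morula ranges overlapped. The log2 fold changes of Psmb5 were 2.03 (SE 0.20) and 0.76 (SE 0.21), those of Psmb6 1.75 (SE 0.18) and 1.25 (SE 0.20), and those of Psmb7 2.32 (SE 0.15) and 1.09 (SE 0.15), all past the threshold. Psma7, the alpha subunit that Psma8 replaces in male germ cells, gave 2.20 (SE 0.19) and 1.66 (SE 0.20). Psmb7 is among 8 members whose 4-cell controls all lay above all 2-cell controls in the miR-200c experiment, with Psma3, Psma5, Psma6, Psmb4, Psmc4, Psmc5 and Psmd12 (1.73% of the 13039 genes above a mean of 1 CPM did so). In the miR-465c experiment 0 members did so (0.376% of genes), replicate 23 being among its 4-cell controls. All morulae lay above all 4-cell controls for 9 members in miR-200c parthenotes (1.06% of genes), 10 in miR-465c parthenotes (1.96%) and 10 in fertilized embryos (1.92%). Psmb3, Psmb7 and a varying set of ATPases and alpha subunits were among them in each series.

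Per kilobase of transcript, the levels of the 14 standard core genes spanned 4.75-fold among 2-cell controls of the miR-200c experiment, from 29.97 CPM per kb for Psma5 to 142 for Psma2. They spanned 2.72-fold at the 4-cell stage, from 196 (Psma1) to 533 (Psma6), and 3.85-fold in morulae, from 259 (Psma3) to 997 (Psmb3). The span was 4.86-, 5.82- and 6.92-fold at the same stages of the miR-465c experiment and 3.67- and 5.12-fold in fertilized embryos, so its narrowing at the 4-cell stage was seen in 1 series. Embryo-to-embryo variation of these genes was lower at later stages in each series: the median coefficient of variation was 51.7%, 27.2% and 21.02% in miR-200c parthenotes, 57.1%, 36.4% and 20.04% in miR-465c parthenotes, and 22.9% and 18.0% in fertilized embryos. Levels were lowest at the 2-cell stage, and the part of counting error in this order was not tested.

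The 6 ATPases of the regulatory particle rose at all 5 steps, though Psmc4 did not pass at the later miR-465c step without the embryos that stood apart (0.52, adjusted p 0.0571). Among the 48 members tested, Psmc4 had the largest log2 fold change from the 2-cell to the 4-cell stage in both experiments. It measured 0.801, 22.8 and 108 CPM in 2-cell, 110, 334 and 928 CPM in 4-cell and 643, 806 and 1094 CPM in morula controls of the miR-200c experiment. Each 4-cell embryo lay above each 2-cell embryo, and the later groups overlapped. Log2 fold changes were 3.75 (SE 0.24, adjusted p 2.8e-33) and 1.41 (SE 0.24), and in the miR-465c experiment 3.63 (SE 0.26, adjusted p 3.6e-28) and 0.71 (SE 0.24, adjusted p 0.0067). Psmc3 instead rose about as much at the later step (2.19, SE 0.21, after 1.80, SE 0.20), and Psmc6 reached 2.17 (SE 0.26) at that step in miR-465c parthenotes. Per kilobase Psmc4 was the highest of the 6 ATPases in morulae of all 3 series, at 569, 712 and 609.6 CPM per kb in miR-200c, miR-465c and fertilized embryos, and Psmc6 the lowest, at 222, 168 and 165 CPM per kb.

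The other 11 subunits of the regulatory particle all rose from the 2-cell to the 4-cell stage in both experiments, with medians of 1.46 and 1.42. Psmd3 in the former did not pass with relative log expression size factors (adjusted p 0.0813) or DESeq2 (0.0649), nor Psmd1 in the latter with library totals (0.0929). From the 4-cell stage to the morula 10 of 11 rose in miR-200c parthenotes, 8 in miR-465c parthenotes and 7 in fertilized embryos. Psmd13 measured 0, 15.2 and 143 CPM in 2-cell and 135, 217 and 326 CPM in 4-cell controls of the miR-200c experiment, and the groups overlapped only at their ends. Its log2 fold change was 3.11 (SE 0.27, adjusted p 3.8e-22). Psmd14, the deubiquitinase of the particle, rose by 2.42 (SE 0.24) and 1.78 (SE 0.25) in the 2 experiments.

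Psmd2, a large scaffold that docks ubiquitin receptors, moved mostly at the later step. It measured 14, 252 and 413 CPM in 2-cell, 42, 364 and 590 CPM in 4-cell and 565, 1084 and 1356 CPM in morula controls of the miR-200c experiment. The first 2 groups overlapped, while the morulae touched the 4-cell range only at its top. Log2 fold changes were 0.76 (SE 0.15) and then 1.75 (SE 0.16), and 2.16 (SE 0.17, adjusted p 3.4e-25) from the 4-cell stage to the morula in fertilized embryos. Psmd11 did the reverse, with 1.44 and 1.17 at the first step and 0.14, 0.26 and -0.10 at the later one, none of the latter past the threshold. Psmd4, a ubiquitin receptor, had the highest level per kilobase of the 11 in all 8 control groups, from 175 to 725 CPM per kb.

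Assembly chaperones guide subunits into the complex and leave it. At the first step 6 of the 7 rose in each experiment. In the miR-200c experiment Psmd9, Psmd10 and Psmg1 did not pass with relative log expression size factors (adjusted p 0.751, 0.653 and 0.0791). The exception was Psmd5, which binds ATPases during assembly: it measured 90.7, 161 and 448 CPM in 2-cell, 62.7, 133 and 199 CPM in 4-cell and 108, 151 and 250 CPM in morula controls of the miR-200c experiment. These ranges overlapped throughout, with log2 fold changes of -0.28 (adjusted p 0.07) and -0.16 (adjusted p 0.35) in the 2 experiments. Psmg3, which helps to build the alpha ring, rose by 2.79 (SE 0.34) and 3.27 (SE 0.38, adjusted p 2.5e-14) from the 2-cell to the 4-cell stage and had 0.38, -0.30 and 0.02 at the later steps, none past the threshold. Psmg2, another chaperone of the alpha ring, rose at both steps, by 1.62 and 1.71 in miR-200c and by 2.17 and 1.97 (SE 0.30, adjusted p 7.1e-09) in miR-465c parthenotes. As a share of counts the 7 chaperones went from 0.0337% ± 0.00807 to 0.0413% ± 0.00888 and 0.0680% ± 0.0121 in miR-200c controls, a smaller ratio than for the core subunits.

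**Figure D3:**
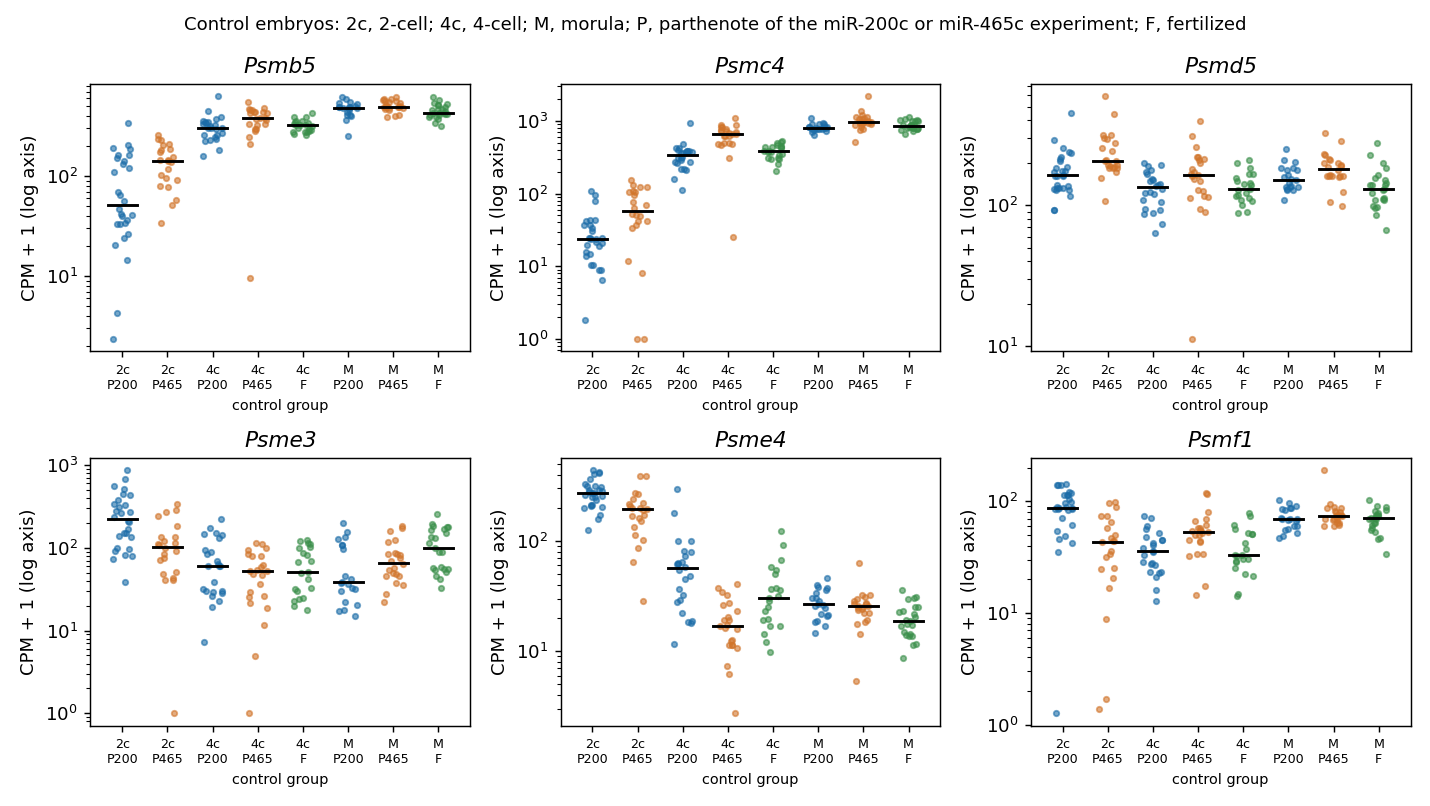
Level in CPM + 1 (log axis) of 6 proteasome genes in each control embryo, by stage and series, with a bar at the median. Psmb5 and Psmc4 climb from the 2-cell stage, Psmd5 stays in one range, Psme4 goes down from the 2-cell stage, Psme3 goes down between the 2-cell and 4-cell stages, and Psmf1 has a lower median in 4-cell than in 2-cell embryos of the miR-200c experiment.

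Among the 6 activators and inhibitors 1 rose and 4 fell at the first step of the miR-200c experiment, and 2 rose and 2 fell in the miR-465c experiment. Together they held 0.0661% ± 0.0220 of counts in 2-cell, 0.0201% ± 0.0105 in 4-cell and 0.0209% ± 0.00612 in morula controls of the miR-200c experiment (SD, n = 28, 24 and 20), and Psme3 and Psme4 made up most of that 2-cell share. Psme4 encodes PA200, a nuclear activator known from mouse testis for the breakdown of acetylated histones. It measured 124, 273 and 439 CPM in 2-cell, 10.7, 55.6 and 299 CPM in 4-cell and 13.7, 25.6 and 44.9 CPM in morula controls. The highest 4-cell embryo reached into the 2-cell range, and all morulae lay below all 2-cell embryos. Its log2 fold changes were -1.97 (SE 0.22, adjusted p 1.3e-15) and -1.09 (SE 0.23, adjusted p 1.8e-05), and -0.92 (SE 0.23, adjusted p 0.00028) at the later step in fertilized embryos. In miR-465c controls Psme4 fell by 3.05 (SE 0.24, adjusted p 1.7e-25) on the log2 scale at the first step, to 1.72, 15.9 and 39.3 CPM, and had 0.49 (SE 0.22, adjusted p 0.051) at the later one. Both differences between experiments passed an interaction test (-1.07, SE 0.30, adjusted p 0.00710, and 1.59, SE 0.32, adjusted p 0.000480). With the replicate number as a block the first of them was -0.92 and did not pass (adjusted p 0.0572).

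Psme3, the nuclear activator REGgamma, measured 37.2, 223 and 862 CPM in 2-cell, 6.22, 59.8 and 220 CPM in 4-cell and 14.1, 37.4 and 198 CPM in morula controls of the miR-200c experiment, with wide and overlapping ranges. It fell at the first step in both experiments (-1.79, SE 0.31, adjusted p 1.1e-07, and -0.85, SE 0.32, adjusted p 0.015). With the replicate number as a block the second value was -0.63 and did not pass (adjusted p 0.0875). At the later step it passed in fertilized embryos (0.89, SE 0.33, adjusted p 0.016), but not with the replicate block (0.62, adjusted p 0.107), and had -0.00 and 0.57 in miR-200c and miR-465c parthenotes. The interaction test of that step between fertilized embryos and parthenotes did not call Psme3.

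Psme1 and Psme2 encode the 2 subunits of the interferon-inducible activator PA28. They went opposite ways at the first step of the miR-200c experiment: Psme1 rose by 1.6 (SE 0.44) and Psme2 fell by 1.25 (SE 0.37, adjusted p 0.0016) on the log2 scale. In the miR-465c experiment Psme1 rose by 2.56 (SE 0.49) and Psme2 had -0.40 (adjusted p 0.36). Both were low, with medians of 4.77 and 15.9 CPM in 2-cell and 10.9 and 5.86 CPM in 4-cell controls of the miR-200c experiment. Psme2 rose at all 3 later steps, by 1.58, 1.45 and 2.20, with the limit on copies of Psme2 given above.

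Psmf1 measured 0.26, 86.5 and 143 CPM in 2-cell, 11.9, 34.5 and 73.2 CPM in 4-cell and 45.9, 68.3 and 101.2 CPM in morula controls of the miR-200c experiment. In the miR-465c experiment it measured 0.378, 42.4 and 96.6 CPM, then 13.4, 52.4 and 117 CPM, then 58.9, 72.6 and 189 CPM. Neighbouring stages overlapped in both series. Psmf1 fell at the first step of the former (-1.13, SE 0.22, adjusted p 2.5e-06) and rose at that of the latter (0.66, SE 0.23, adjusted p 0.0093). The rise did not pass under DESeq2 (0.41, adjusted p 0.108), with relative log expression size factors (0.42, adjusted p 0.127) or with library totals (0.29, adjusted p 0.251). The difference of 1.80 (SE 0.32, adjusted p 9.87e-06) had the smallest adjusted p among members in the interaction tests. At the later step it rose in all 3 series, by 1.08, 0.60 and 0.88, of which the miR-465c value did not pass with the replicate block (0.54, adjusted p 0.0534) or without embryos that stood apart (0.50, adjusted p 0.0713).

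The inducible core subunits replace standard ones in immune cells, where they favour peptides for antigen presentation. Psmb8, which replaces Psmb5, had counts in 2 of 28 and 3 of 22 of the 2-cell controls and in 0 of all later controls. Psmb9, which replaces Psmb6, had counts in 2 of 28 and 2 of 22 of the 2-cell controls, too few for its fall at the first step, which is in the counts above, to be read as a size. At the 4-cell stage it had 0 counts in all 24 and all 23 parthenote controls, which allows at most 0.0447 and 0.0354 CPM over each group (3 counts in the summed libraries), and 1 count in 1 of 21 fertilized controls.

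In control morulae Psmb9 was present in 18 of 20, 22 of 22 and 22 of 23 embryos, at a lowest, median and highest level of 0, 4.71 and 15.7 CPM in miR-200c, 4.31, 9.91 and 21.9 CPM in miR-465c and 0, 7.77 and 17.4 CPM in fertilized embryos. Against the limit of 3 counts, summed morula controls were at least 120-fold higher in miR-200c and at least 299.5-fold higher in miR-465c parthenotes. In fertilized embryos 522 counts against 1 gave a ratio of 575 (exact 95% counting interval 103 to 22751). These intervals and limits cover counting error only, since reads carry no molecular identifiers. The rise of Psmb9 passed the threshold at each of the 3 later steps.

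Psmb10, which replaces Psmb7, followed another order. It measured 0, 7.1 and 28.6 CPM in 2-cell, 1.51, 24.5 and 110 CPM in 4-cell and 10.2, 18.2 and 35.2 CPM in morula controls of the miR-200c experiment, with overlapping ranges. It rose at the first step (1.92, SE 0.33, and 1.85, SE 0.35) and had -0.53 and -0.33 at the later step in miR-200c and fertilized embryos, neither past the threshold, but fell in miR-465c parthenotes (-1.07, SE 0.34, adjusted p 0.0054). Psmb11, the thymus-specific relative of Psmb5, fell at the first step (-2.09, adjusted p 0.027, and -2.05, adjusted p 0.04), from group levels of 3.53 and 4.58 CPM to 0.537 and 0.543 CPM over the summed libraries. The second of these did not pass under DESeq2 (adjusted p 0.0873), with the replicate block (0.0871), with no filter (0.0592) or without embryos that stood apart (0.0549).

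Psma8, the testis-specific alpha subunit, had 0 counts in all 28 and all 22 of the 2-cell controls, which allows 0.0426 and 0.0492 CPM. It had counts in 13 of 24 of the 4-cell controls of the miR-200c experiment (2.59 CPM over the summed libraries), 6 of 23 in miR-465c (0.390 CPM) and 11 of 21 in fertilized embryos (1.23 CPM). Control morulae with counts were 12 of 20, 15 of 22 and 12 of 23. The filter on low counts left it out of the stage tests.

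Psmc3ip measured 59.8, 61.3 and 33 CPM (medians) in the 3 stages of the miR-200c controls. It was lower in morulae than at the 4-cell stage in all 3 series (-0.71, SE 0.25, adjusted p 0.013, then -0.88, SE 0.25, and -1.09, SE 0.25, adjusted p 9.3e-05). Scaled by size factors of the relative log expression kind, the first of these was -0.50 (adjusted p 0.0639). It was 1 of the 2 members that fell in each series at that step, the others being Psme4 in miR-200c and fertilized embryos and Psmb10 in miR-465c parthenotes.

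Among 2-cell controls the share of proteasome transcripts ran from 0.262% to 0.680% in the miR-465c experiment, and it moved with other transcripts of the stage. Relations of this share with the summed level of 2-cell activation genes, with that of maternal oocyte genes and with total count were computed in 5 groups of 2-cell embryos, 15 relations in all, chosen after the values were seen. With activation genes Pearson's r was -0.697 in miR-200c controls (n = 28, rho -0.689, permutation adjusted p 0.00015 and 0.0002) and -0.92 in miR-465c controls (n = 22, rho -0.91, permutation adjusted p 7.5e-05 and 0.00015). It was -0.47, -0.43 and -0.79 in the low-dose, mid-dose and miR-465c-injected groups (permutation adjusted p 0.028, 0.076 and 0.00011), where rho was -0.49, -0.49 and -0.70 (permutation adjusted p 0.018, 0.025 and 0.0018). Without the 2 embryos farthest from the median, r ran from -0.58 to -0.89 over the 5 groups.

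With maternal oocyte genes r was -0.75, -0.74, -0.43, -0.52 and -0.75 in the miR-200c control, low-dose and mid-dose and the miR-465c control and injected groups. The mid-dose value did not pass (permutation adjusted p 0.052). With total count r was 0.31, 0.64, -0.01, 0.57 and 0.01 in the same order, and the low-dose and miR-465c control values passed (permutation adjusted p 0.00096 and 0.012). Shares and summed levels are parts of one total, and the part of depth in these relations was not tested.

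Genes that act with the proteasome were read from 3 lists. At the first step 34.3% of all genes rose and 35.5% fell in the miR-200c experiment, and 31.1% and 35% in the miR-465c experiment. From the 4-cell stage to the morula 25.8%, 26.9% and 28.3% rose and 29%, 28.8% and 25.3% fell in miR-200c, miR-465c and fertilized embryos. Of 14 partner genes tested, 8 rose and 3 fell from the 2-cell to the 4-cell stage in the miR-200c experiment, and 7 rose and 4 fell in the miR-465c experiment, with medians of 0.81 and 1.01. Pomp, the maturation factor that closes the core particle, measured 16.1, 35 and 59.6 CPM in 2-cell, 86.1, 157 and 202 CPM in 4-cell and 177, 252 and 445 CPM in morula miR-200c controls. The 2-cell and 4-cell embryos did not overlap, and log2 fold changes were 2.20 (SE 0.16) and 2.43 (SE 0.18) in the 2 experiments. Shfm1 (2.14 and 2.62) and the ubiquitin receptor Adrm1 (2.14 and 2.10), both subunits of the regulatory particle, rose as well. Akirin2, which carries proteasomes into the nucleus, fell (-1.74, SE 0.27, and -1.32, SE 0.28), as did AI314180, which encodes the proteasome-binding scaffold Ecm29 (-1.18 and -2.15). At the later step 5, 6 and 7 of 14 rose and 4, 2 and 2 fell in miR-200c, miR-465c and fertilized embryos. Zfand5 (-2.36, -2.04 and -2.01) and Zfand2a (-1.75, -2.11 and -1.48), which encode proteasome-binding zinc finger proteins, fell in all 3.

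Of 16 genes for ubiquitin, shuttles and the unfoldase Vcp, 8 rose and 3 fell at the first step in the miR-200c experiment and 9 and 3 in the miR-465c experiment. At the later step 8, 8 and 8 rose and 0, 2 and 0 fell. The shares of all genes given with the partner list are the background for these counts as well. Ubb, a polyubiquitin gene, fell first (-1.50 and -0.48) and rose later (1.91, 1.06 and 1.99), while Ufd1l, a cofactor of Vcp, rose first (3.56 and 2.74). Of 10 genes for transcription of proteasome genes, 2 rose and 4 fell, then 2 and 5, at the first step. Over all genes these were 34.3% and 35.5%, then 31.1% and 35%. Nfe2l1, the transcription factor that induces proteasome genes in mammalian cells when the proteasome is inhibited, fell (-0.87 and -1.05), as did Ngly1 (-2.60 and -2.29), the enzyme that removes its sugars. Nfe2l2 rose at the later step (2.53, 2.85 and 4.06). At that step 1, 3 and 4 of the 10 rose and 2, 4 and 1 fell.

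Promoters are shown because the subunits moved together: TGACNNNGC, the core of the antioxidant response element bound by Nfe2l1 and Nfe2l2, was searched on both strands from 250 bases before to 50 bases after each start. It was found in 6 of 42 members with a promoter in the RefSeq table (14.3%), against 13.99% of the 27025 genes in that table. CCAAT, the NF-Y motif, was found in 15 of 42 (35.7%) against 41.1%. Capitals mark the TGACNNNGC match, which reads as its complement in Psmc6, Psmd12 and Psme4. The windows lie on GRCm38.p6 at chr14:54618023-54618052 on the minus strand (Psmb5), chr11:70525338-70525367 (Psmb6), chr14:45329587-45329616 (Psmc6), chr11:107479278-107479307 (Psmd12), chr5:123228149-123228178 (Psmd9) and chr11:30771758-30771787 (Psme4), the last 5 on the plus strand.
Psmb5: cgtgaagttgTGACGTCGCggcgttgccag
Psmb6: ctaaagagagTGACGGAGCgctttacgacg
Psmc6: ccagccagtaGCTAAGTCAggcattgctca
Psmd12: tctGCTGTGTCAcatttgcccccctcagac
Psmd9: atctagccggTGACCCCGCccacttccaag
Psme4: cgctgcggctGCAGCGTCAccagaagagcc
Of these 6 genes, 5 rose at the first step, as did 39 (miR-200c) and 40 (miR-465c) of all 48 members tested. Psme4, with a match to the same pattern on the opposite strand 7 bases before its start, fell.

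Fertilized controls were tested against the mean of the 2 series of parthenote controls. Calls among the 48 members tested are given beside the share of all genes called. The parthenote levels given below for Psmd10 and Psmd2 are those of the miR-200c series alone. At the 4-cell stage 0 members were higher in fertilized embryos (5.26% of all genes were; at an unadjusted p under 0.05, 8 members differed either way; DESeq2 called 0 higher) and 5 were lower (9.09% of all genes). At the morula stage 0 were higher (3.98%; 6 members at an unadjusted p under 0.05 either way; DESeq2 0 higher) and 1 was lower (1.56%). Psmd10, an X-linked gene for the chaperone gankyrin, was the member lower at both stages. It measured 5.87, 13.2 and 33.3 CPM in fertilized and 2.47, 28.8 and 64.2 CPM in parthenote 4-cell controls, and 28.2, 42.5 and 80.5 against 34.1, 90.9 and 166 CPM in morulae. The groups overlapped at both stages (-0.99, SE 0.30, adjusted p 0.0114, and -0.99, SE 0.29, adjusted p 0.0190). Psmd2 was at 86.1, 233 and 364 CPM in fertilized against 42, 364 and 590 CPM in parthenote 4-cell controls (-0.70, SE 0.14, adjusted p 0.000102), and its rise from there to the morula was larger in fertilized embryos (interaction 0.65, SE 0.19, adjusted p 0.0351; 1 member and 3.64% of all genes differed in that step). With the replicate number as a block that interaction was 0.67 and did not pass (adjusted p 0.0586). Psmb6 was lower by 0.59 (SE 0.17, adjusted p 0.0108) on the log2 scale at the 4-cell stage. Its mean there was 289 CPM in fertilized controls, 319 CPM in miR-200c and 668 CPM in miR-465c parthenote controls. The other 2, named after their values were seen, were the low genes Psmg4 (-1.88, SE 0.50) and Psme2b (-1.54, SE 0.54), the latter not passing with the replicate block (adjusted p 0.136).

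Control parthenotes of the miR-465c and miR-200c experiments, both injected with GFP, differed in members of every role up to the 4-cell stage. At the 2-cell stage 16 were higher and 7 lower in the miR-465c series (12.8% and 13.6% of all genes), at the 4-cell stage 17 and 5 (10.9% and 16.1%), and at the morula stage 1 and 0 (0.676% and 3.14%; 10 members at an unadjusted p under 0.05 either way, DESeq2 0 lower). Psmc4 was higher at the 2-cell (1.13, SE 0.23) and 4-cell stage (1.02, SE 0.23), as was Psmb10 (1.12, SE 0.33, and 1.05, SE 0.34), and Psmc6 was lower at both (-1.19, SE 0.25, and -1.04, SE 0.25). Psmd13 was higher (1.23, SE 0.26) and Psme3 (-1.31, SE 0.31) and Psmf1 (-1.14, SE 0.23) were lower at the 2-cell stage. Psmb6 was higher (1.18, SE 0.19) and Psme4 (-1.74, SE 0.22, adjusted p 1.11e-10) and Psma3 (-0.72, SE 0.18) were lower at the 4-cell stage. In morulae Psmb6 was the member called (0.70, SE 0.20, adjusted p 0.0229), and it was not called without the embryos that stood apart (0.47, adjusted p 0.255). With the replicate number as a block the Psmb10 difference at the 2-cell stage did not pass (0.78, adjusted p 0.134).

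The doses ask whether more of a microRNA found in sperm changes the transcripts of the embryo. Injection left 0 members past the threshold in each of 15 comparisons of a dose with its controls by edgeR, with 44 to 47 members tested. Over all genes 0% were called in 13 of these comparisons and 0.0188% at the high and at the mid dose of miR-200c at the 4-cell stage. Doses of one stage share their controls. Between 0 and 4 members had an unadjusted p under 0.05 in 14 comparisons, and 14 of 45 did at the mid dose of miR-200c in 2-cell parthenotes, where 1857 of 11202 genes did. DESeq2 called 4 members there and 0 elsewhere. Its share over all genes at that dose is not given, so these calls are not read as particular to proteasome genes.

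**Figure D4:**
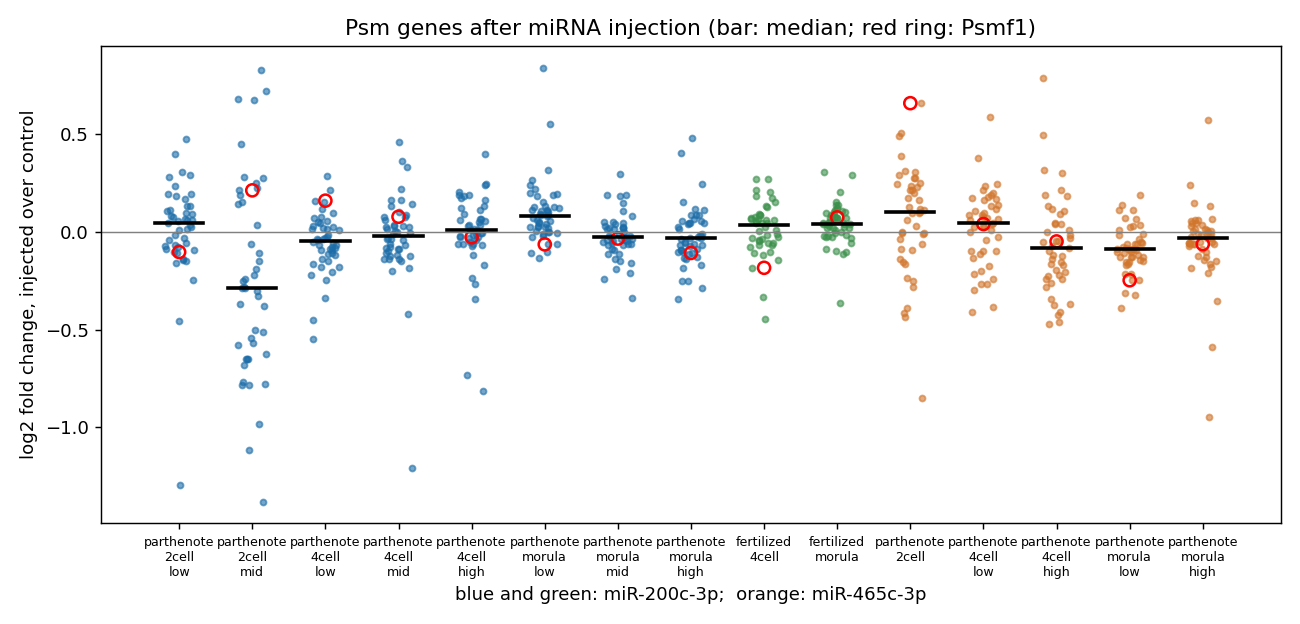
Log2 fold change of each proteasome gene tested in 15 comparisons of a microRNA dose with its controls, 1 point per gene, with Psmf1 ringed in red. Points centre near 0 except at the mid dose in 2-cell parthenotes, where the median is -0.28, and Psmf1 lies between -0.25 and 0.66.

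At that mid dose Psmb5 had the smallest p of the members. It measured 0.451, 13.2 and 152 CPM against 1.34, 50.9 and 336 CPM in controls, with overlapping ranges (log2 fold change -1.38, SE 0.43, edgeR adjusted p 0.167). Psmb5 passed under DESeq2 (-1.47, adjusted p 0.0291), with no filter on low counts (adjusted p 0.0284), with the replicate number as a block (-1.82, adjusted p 0.0329) and with bands of embryo numbers (-1.64, adjusted p 0.0363). It did not pass with relative log expression size factors, with library totals alone or without embryos that stood apart. Other members called there under an alternative went both ways, such as Psmb1 (-0.87) and Psmb3 (0.65) under DESeq2. The median log2 fold change of the 45 members tested was -0.28, with 14 positive, against 0.04 for all genes. Their share of counts was 0.382% ± 0.0760 at the mid dose (SD, n = 23), 0.432% at the low dose and 0.424% ± 0.0957 in controls. Beside this, the 10 most abundant genes took 9.65% ± 2.09 of counts at the mid dose against 7.90% ± 1.37 in controls, and maternal oocyte transcripts summed to 7786 ± 1626 against 6553 ± 1042 CPM. The part of these in the values of Psmb5 was not tested.

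Other smallest p among members were those of Psmc6 at the high dose of miR-200c at the 4-cell stage (0.40, SE 0.11, edgeR adjusted p 0.638), Psme2 at the low dose in morulae (0.56, SE 0.25, adjusted p 0.899) and Psmb9 at the high dose of miR-465c in morulae (-0.95, SE 0.31, adjusted p 0.246). Psme4 at the high dose of miR-465c in 4-cell embryos had 0.79 (SE 0.37, adjusted p 1.000), with 3.64, 19.3 and 188 CPM against 1.72, 15.9 and 39.3 CPM. In fertilized embryos the smallest p were those of Psma2 at the 4-cell stage (0.14, SE 0.08) and of Psmd7, a subunit next to the deubiquitinase, in morulae (0.20, SE 0.08), both with adjusted p 1.000. At the high dose of miR-465c Psmb9 measured 0, 4.29 and 14.1 CPM in morulae, against 4.31, 9.91 and 21.9 CPM in controls, and the groups overlapped. Psmf1, with its seed matches, had 0.66 (SE 0.38, edgeR adjusted p 1.000) in 2-cell parthenotes injected with miR-465c-3p, at 2.68, 61.1 and 174 CPM against 0.378, 42.4 and 96.6 CPM. Its log2 fold changes over the 15 comparisons ran from -0.25 to 0.66. Shares of counts held by the members were 1.02% to 1.05% at the 3 miR-200c doses of 4-cell parthenotes, against 1.04% in controls, and 1.99% to 2.03% against 2.02% in morulae. In the 3 lists 0 of 210, 236 and 149 tests passed (edgeR, with 16, 19 and 9 at an unadjusted p under 0.05).

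In the editing assay, Ago-REMORA, an RNA editor is joined to AGO2, which microRNAs bring to their targets, and edits mark the transcripts it met. Values are in EPKM, an editing level on the authors' scale with no depth given, for 15 embryos with the editor alone and 23 with the AGO2 fusion. The fusion came with added miR-200c in 27 embryos and with miR-465c in 28. Members had a row in the tables for 26 of 3′ UTRs, 27 of coding sequences and 25 of introns, of which 15, 23 and 10 passed the filter on values of 0. Against the editor alone, 1 of 15 members was higher in 3′ UTRs with AGO2 (9.36% of all 3′ UTRs tested were), 1 of 23 in coding sequences (4.55%) and 0 of 10 in introns (0.0438% of all introns; 2 members at an unadjusted p under 0.05) by limma on log2(EPKM + 1).

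Both calls were Psme3. Its 3′ UTR measured 0, 0 and 4.17 EPKM with the editor alone and 0, 3.35 and 10.5 EPKM with AGO2 (lowest, median, highest), above 0 in 7 of 15 and 22 of 23 embryos. The ranges overlapped, with a difference of 1.31 (SE 0.32, adjusted p 0.00241) on the log2(EPKM + 1) scale, which understates changes of low values. Its coding sequence was above 0 in 5 of 15 and 18 of 23 embryos, with a difference of 0.78 (SE 0.24, adjusted p 0.0376). That call did not pass with no filter (adjusted p 0.0754). Psmd3, a scaffold subunit, was next in 3′ UTRs (1.16, SE 0.41, adjusted p 0.0584), and passed with a pseudocount of 0.1 (adjusted p 0.0282), and the chaperone Psmd9 was next in coding sequences (0.75, SE 0.25, adjusted p 0.0651).

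With a microRNA added, 0 members differed from AGO2 alone in any region by limma (0 or 1 per test at an unadjusted p under 0.05), where 0% of genes did in 5 of the 6 tests and 0.036% of 3′ UTRs with miR-465c. The 3′ UTR of Psme3 was above 0 in 24 of 27 embryos with miR-200c (median 1.74 EPKM) and in 24 of 28 with miR-465c (median 2.09 EPKM). Its differences from AGO2 alone were -0.40 (SE 0.27, adjusted p 0.88) and -0.29 (SE 0.27, adjusted p 0.88), and the groups overlapped. Psmf1, which holds the seed matches, was not among the members with editing values in 3′ UTRs, coding sequences or introns, so its editing could not be read.

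**Figure D5:**
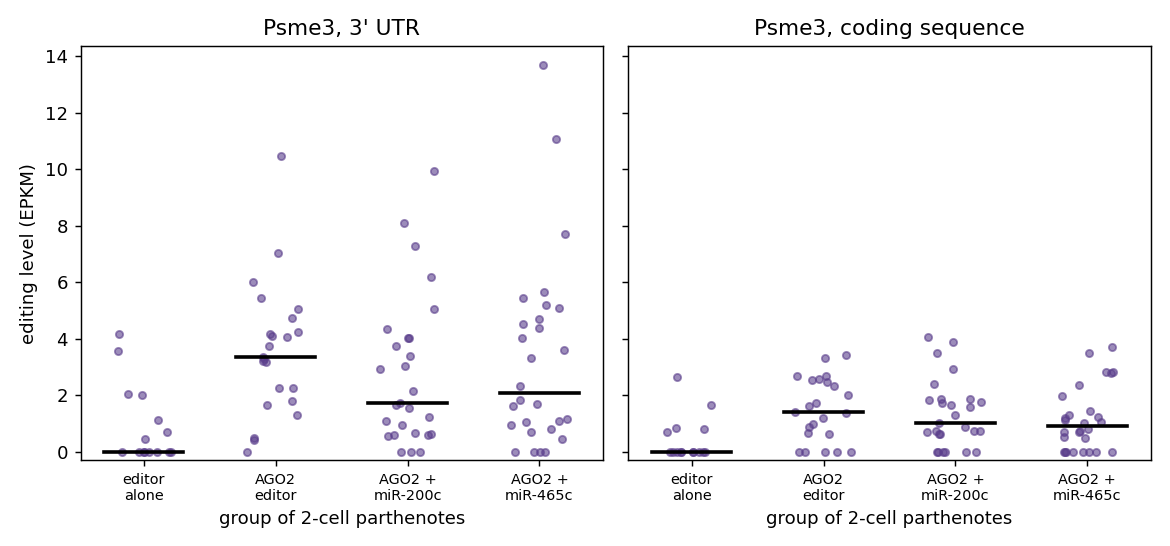
Editing of Psme3 in EPKM in each 2-cell parthenote of the assay, for its 3′ UTR and its coding sequence, with the editor alone, the AGO2 fusion, and the fusion with miR-200c or miR-465c. Embryos above 0 are 7 of 15 with the editor alone and 22 of 23 with AGO2 in the 3′ UTR.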

How the data were processed

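Single-embryo SMART-Seq libraries were aligned to mm10 and quantified with RSEM by the authors, per the labels' protocols, and expected counts were deposited without normalization. Cutadapt, STAR, featureCounts, FastQC, DESeq2 1.48.2 and R 4.5.1 appear in the submitters' processing notes, their roles not given. The authors' deposited editing signal is in EPKM, a unit named in the file headers and not spelled out, and 3 columns per table that match no labelled sample were not used. The library kit is not stated to keep strand, so a member and a gene overlapping it cannot be told apart. Exons of Psma4, Psmc3ip, Psme1 and Psme2b overlap another gene's, by 45, 67, 4 and 261 bases.

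Expected counts were rounded and tested with edgeR 4.0.16 (R 4.3.3): TMM, filterByExpr by group, quasi-likelihood, Benjamini-Hochberg adjustment over all genes tested and a threshold of 0.05. One fit held all control groups for stage, embryo type, series and interactions, and 8 fits, 1 per stage and experiment, held the dose comparisons. CPM in the text are scaled to library totals. EPKM was tested with limma 3.58.1 on log2(EPKM + 1) for regions above 0 in at least 20% of assay embryos. Fits were tested on simulated data. Embryos that stood apart lay over 5 scaled median absolute deviations below their group in correlation with its median. Alternatives were DESeq2 1.42.0, other scalings, no filter, a replicate block, bands of 8 embryo numbers, a pseudocount of 0.1, and leaving out embryos that stood apart, which was chosen after seeing the data. Sequences come from RefSeq tables on GRCm38.p6. Proteins, sperm small RNA and a second copy of the fertilized 4-cell counts were not used here.

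Named for each stage, type or series contrast were members called in either direction, at most 3 each, with a mean of at least 10 CPM in the higher group. Members with the smallest p were named per dose fit, members past the threshold for editing, and the restricted core subunits with the standard ones they replace always. For partner lists the rule took up to 3 each way. Members and lists were chosen with earlier results of these data known.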

Additional observations from a re-analysis of the deposited data

Results flagged for a closer look

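For 12 results an interaction test found that a step differed between series, each experiment's values being confounded with its own libraries. From the 2-cell to the 4-cell stage the change in miR-465c controls less that in miR-200c controls (log2, edgeR adjusted p) was positive for Psmf1 (1.80, 9.87e-06), Psmb3 (1.25, 0.000116), the alpha-ring chaperone Psmg1 (1.19, 0.00734) and the ATPase chaperone Psmd9 (0.77, 0.0111). It was negative for Psma3 (-1.14, 0.000433), Psme4 (-1.07, 0.00710), Psmd13 (-1.03, 0.0455), Psma6 (-0.96, 0.0110), Psmd12 (-0.73, 0.0110) and Psmb7 (-0.59, 0.0366). These are 10 of 48 members, where 14.6% of all genes differed. With the replicate number as a block 7 passed, and Psmb7 (adjusted p 0.0730), Psmd9 (0.0683) and Psme4 (0.0572) did not. Psmd13 did not pass without embryos that stood apart (0.0775), nor Psmd9 with library totals (0.0864). Of the 10, Psmf1 is the one whose sign differs between experiments, and the other 9 moved the same way by unlike amounts.

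From the 4-cell stage to the morula Psme4 differed between the experiments (1.59, adjusted p 0.000480; 3.74% of all genes did). Its values at the 4-cell stage already differed, with medians of 15.9 CPM in miR-465c and 55.6 CPM in miR-200c controls, and the 2 interactions share these embryos. Between fertilized embryos and the mean of both parthenote series Psmd2 differed at this step (0.65, edgeR adjusted p 0.0351), as did 3.64% of all genes. With the replicate block Psmd2 did not pass (0.67, adjusted p 0.0586). In fertilized embryos and miR-200c parthenotes the medians of Psmd2 were 233 and 364 CPM at the 4-cell stage, where the ranges overlapped. In morulae they were 1038 and 1084 CPM.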

How the results depend on the processing

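No member called in control embryos changed direction under the alternatives run. The median log2 fold change of the members, at most 0.0876 in size, changed sign in 6 of the 15 dose comparisons under at least 1 alternative. At the low dose of miR-200c in morulae 37 of 47 members were positive, against 10 with the replicate block, 11 with number bands and 6 without embryos that stood apart, and at the high dose of miR-465c in morulae 18 of 47 against 32 of 48 without embryos that stood apart. The median difference of the first step between experiments was 0.14, and -0.07 with library totals. Of 270 counts of members called under an alternative, 242 stayed within 1.5 times the main count. Under DESeq2, 8 members were lower in fertilized than in parthenote 4-cell controls (2010 of 13027 genes were) and 3 in morulae (414 genes). It called 5 members higher in miR-465c than in miR-200c morulae (239 genes). In the later step between these experiments 2 differed (289 genes were positive and 199 negative). At the mid dose of miR-200c in 2-cell embryos it called 4, with the share over all genes not given. With relative log expression size factors 1 member fell at the later step of miR-200c parthenotes (3247 genes did) and 2 were lower in fertilized morulae (279 genes). Under this scaling 3 were higher in miR-465c morulae (162 genes) and 2 differed in the later step (338 genes were positive and 216 negative). With library totals alone 9 members were higher in miR-465c 4-cell controls (1015 genes were) and 2 differed in the later step (483 genes were positive and 111 negative). With no filter on low counts 2 members were called at the mid dose in 2-cell embryos and 1 each at the low dose there, at the 3 miR-200c doses of the 4-cell stage, in miR-465c 2-cell embryos and at the low dose of miR-465c in morulae. Bands of embryo numbers called 2 at the mid dose in 2-cell embryos. Without embryos that stood apart 0 were higher in miR-465c morulae and 3 differed in the later step. In editing, 2 members passed in 3′ UTRs with a pseudocount of 0.1 (319 of 2778 3′ UTRs were higher), and 0 in coding sequences with no filter. Calls of members with no filter on low counts, number bands, the replicate block or without embryos that stood apart are given without the share of all genes. They are not read as particular to the members. The causes were not tested.

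Relative log expression shifted the median log2 fold change of all genes by -0.42 and -0.25 at the first step (miR-200c, miR-465c) and by 0.20, 0.16 and 0.29 at the later one (fertilized last), with 35 members higher and 8 lower, 39 and 5, 42 and 1, 43 and 2, and 42 and 2. Of all calls at the first miR-200c step 38.3% were then higher, against 49.1%, and in fertilized embryos 64.6% against 52.7% at the later one. At the 4-cell stage 14.5% (DESeq2) and 18.3% (relative log expression) of calls were higher in fertilized embryos against 36.7%, and 53.7%, 51.8% and 29.4% (library totals) in miR-465c against 40.3%. In morulae 37.3% (DESeq2) and 33.3% were higher in miR-465c against 17.7%.

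With the replicate number as a block, 2 members fell at the first miR-465c step, 1 was higher in fertilized 4-cell embryos, 0 were higher in miR-465c morulae (Psmb6 0.61, adjusted p 0.113), 0 differed in the later step by embryo type (Psmd2 0.67, adjusted p 0.0586), and 2 were called at the mid dose in 2-cell embryos. Numbers were not taken to pair embryos in the main fits. Of same-numbered pairs 81 of 298 had a correlation of deviations above 0.1 (range -0.229 to 0.518). These were 1 of 19 in fertilized 4-cell embryos, 18 of 43 in miR-200c 2-cell embryos and 12 of 22 in fertilized morulae. The median in fertilized morulae was 0.107, against -0.00417 for unlike numbers, and in miR-465c morulae -0.0234 against -0.00507. The share above 0.1 was not computed for unlike numbers, so these counts cannot decide whether numbers mark shared pools. Leaving out embryos in turn was not run, since groups held over 5. Levels under about 1 CPM rest on few counts, which limits Psma8, Psmb8 and Psmb11, and the depth behind EPKM is unknown.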
